A study of Mus musculus with 2 samples.

Results

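The Ikaros zinc finger family comprises 5 genes, Ikzf1, Ikzf2, Ikzf3, Ikzf4 and Ikzf5, and the peaks described here are those of a Notch1 chromatin immunoprecipitation with sequencing (ChIP-seq) that lay in the body of one of these genes or within 50 kb of any of its annotated start sites. By that rule 15 of the 5913 deposited peaks were taken, 14 of them at Ikzf1, Ikzf2 and Ikzf3. The cells were primary gamma delta T cells of wild-type C57BL/6 mice, taken from the thymus between postnatal day 0 and 3. There was 1 library precipitated with a rabbit monoclonal antibody to Notch1 (D1E11), and 1 input library without antibody, which is not analysed here. The labels do not say how many mice were pooled or how the cells were purified, and a peak list holds no expression by which the labelled cell type could be checked. No replicate of the Notch1 library was analysed here, so the values describe this library and no difference was tested. The sequencing depth is unknown from the files used.

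Ikaros proteins are nuclear zinc finger factors. In Ikaros, the product of Ikzf1, fingers near the amino end bind DNA at sites built around GGGAA. A pair of fingers near the carboxyl end joins family members to each other. Ikaros brings repressor complexes such as NuRD to DNA, and in mouse thymocytes it holds back genes that Notch turns on. Notch1 acts in the nucleus through RBPJ, which binds a core TGGGAA. That core contains GGGAA, so a site for one can be a site for the other. Ikzf2 encodes Helios, Ikzf3 Aiolos, Ikzf4 Eos and Ikzf5 Pegasus, the most divergent of the 5.

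Of the 15 peaks, 6 held the RBPJ core, in 7 copies. These copies are shown because each is also a possible Ikaros site. They are written 5′ to 3′ on the strand that carries the core, from the RefSeq GRCm38.p6 assembly (mm10), with the core in capitals and 10 bases on either side.
Ikzf1 intron 1, chr11:11690281-11690306, minus strand: agtggccactTGGGAAggaccctgat
Ikzf1 intron 3, upstream copy, chr11:11725911-11725936, minus strand: attgaacaatTGGGAAtcagagagaa
Ikzf1 intron 3, downstream copy, chr11:11726243-11726268, minus strand: gtgccccttcTGGGAAatgatgaaat
Ikzf2 intron 4, chr1:69574888-69574913, minus strand: tatgattctaTGGGAActgttcctat
Ikzf2 intron 3, AP-1 peak, chr1:69611835-69611860, plus strand: attacttcctTGGGAActttggtttg
Ikzf2 intron 3, near the starts, chr1:69680802-69680827, minus strand: tagaggtcagTGGGAAaacttttctg
Ikzf3 intron 7, chr11:98470067-98470092, plus strand: agagaggctcTGGGAAgtttccaggg

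In 1 of the 7 copies the base before the core was G, as in the longer RBPJ consensus. That consensus, searched with its full 8 letters, was found in 0 of the 15 peaks, beside 6.18% of all 5910 peaks on nuclear chromosomes. A head-to-head pair of cores with 15 to 17 bases between them, the arrangement on which a Notch dimer can assemble, was also found in 0 of the 15 peaks, and in 1 of the 5910.

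The peak of highest score in the family lay in intron 3 of Ikzf1. Its central 300 bases (chr11:11726023-11726322, plus strand) are shown because they hold, in capitals and in this order, a RUNX motif TGTGGT, a TCF/LEF motif CTTTGA and an RBPJ core on the minus strand, read as TTCCCA.
Ikzf1 intron 3: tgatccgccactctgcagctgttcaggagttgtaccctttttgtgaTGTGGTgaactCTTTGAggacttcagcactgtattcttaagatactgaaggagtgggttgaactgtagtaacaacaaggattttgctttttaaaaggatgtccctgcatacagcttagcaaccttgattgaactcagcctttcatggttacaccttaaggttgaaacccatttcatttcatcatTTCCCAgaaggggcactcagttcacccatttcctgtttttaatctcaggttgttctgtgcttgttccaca

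The peak with the most kinds of motif lay in intron 7 of Ikzf3. The stretch shown (chr11:98470072-98470371, plus strand) holds in capitals the RBPJ core, a TCF/LEF motif on the minus strand (TCAAAG), a RUNX motif on each strand (ACCACA, then TGTGGT) and an E-box CACGTG. An AP-1 motif TGANTCA followed 18 bases past its end.
Ikzf3 intron 7: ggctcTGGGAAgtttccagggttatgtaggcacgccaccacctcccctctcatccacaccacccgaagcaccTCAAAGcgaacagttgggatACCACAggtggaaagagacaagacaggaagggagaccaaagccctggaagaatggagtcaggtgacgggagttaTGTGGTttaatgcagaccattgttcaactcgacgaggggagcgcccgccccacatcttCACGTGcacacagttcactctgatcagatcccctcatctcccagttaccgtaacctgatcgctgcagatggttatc

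A shorter stretch in intron 3 of Ikzf2 (chr1:69611809-69611870, plus strand) shows an AP-1 motif and an RBPJ core, both in capitals, with 9 bases between them.
Ikzf2 intron 3: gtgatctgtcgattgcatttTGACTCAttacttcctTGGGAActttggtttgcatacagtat

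Of the 5 genes, 4 had at least 1 peak by the rule, as did 31.7% of all 21938 protein-coding genes. Ikzf2 and Ikzf3 had 5 peaks each, which 0.597% of all genes reached. Ikzf1 had 4, a number that 1.31% of genes reached. Ikzf4 had 1 peak and Ikzf5 had 0. The family was thus divided, with 3 genes of several peaks and 2 genes of 1 or none. All peaks of Ikzf1, Ikzf2 and Ikzf3 lay in the gene bodies, so counting bodies alone gave the same division from the same peaks. Within their bodies Ikzf1, Ikzf2 and Ikzf3 had 4, 5 and 5 peaks, and Ikzf4 and Ikzf5 had 0, while 11.6% of all protein-coding genes had at least 1 there.

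Longer genes have longer windows and can take up more peaks. The window of Ikzf1 spanned 137.9 kb, that of Ikzf2 206 kb, that of Ikzf3 168.6 kb, that of Ikzf4 101.3 kb and that of Ikzf5 116.9 kb. Among 5683 protein-coding genes whose window was within 20% of that of Ikzf1 in length, Ikzf1 included, 1.23% had 4 or more peaks. The corresponding share with 5 or more was 1.25% of 1606 genes for Ikzf2 and 0.908% of 2753 genes for Ikzf3. For Ikzf4, 28.1% of 15890 genes of like window had at least 1 peak, and for Ikzf5, 28.9% of 17855 did. The windows of the 5 genes together held 20.5 peaks per Mb, 27.3 at Ikzf1, Ikzf2 and Ikzf3 and 4.58 at Ikzf4 and Ikzf5. The 2725.5 Mb of the chromosomes held 2.17 per Mb, but they include stretches far from genes, so this is not a density of gene windows. Over all protein-coding genes the mean was 0.486 peaks per window. Counted over gene bodies, the density was 45.5 per Mb in Ikzf1, 32 in Ikzf2 and 61.6 in Ikzf3. Of 1278 genes within 20% of Ikzf1 in length, itself included, 0.626% had 4 or more peaks in the body. At 5 or more were 0.257% of 778 genes as long as Ikzf2 and 0.294% of 1360 genes as long as Ikzf3, and the most that any of them had was 6. Of genes as long as Ikzf4 and Ikzf5, 7.69 and 7.7% had a peak in the body.

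**Figure D1:**
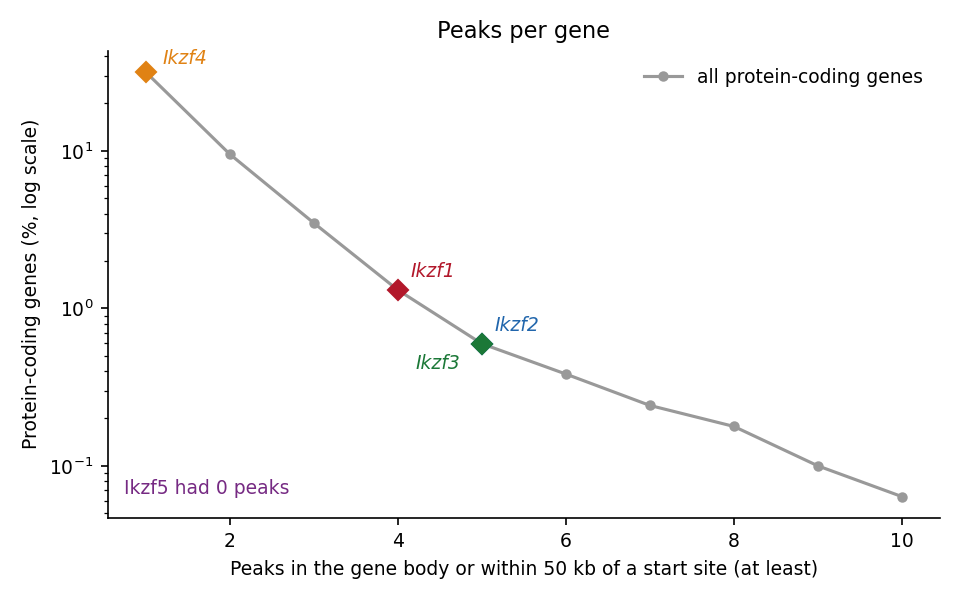
Percentage of protein-coding genes (vertical axis, log scale) with at least the number of peaks on the horizontal axis, in the gene body or within 50 kb of a start site. Diamonds mark the Ikaros family genes at their own number of peaks. Ikzf2 and Ikzf3 share the point at 5 peaks and 0.597%, Ikzf1 is at 4 peaks and 1.31%, Ikzf4 is at 1 peak and 31.7%, and Ikzf5, with 0 peaks, has no point.

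Ikzf1 (ENSMUSG00000018654.17, chr11:11685003-11772926, plus strand) carried its 4 peaks in the first part of the gene. The promoter peak at chr11:11686261-11686672 scored 957.25, where the score is the authors' own value per peak, of unstated scale. It covered the start of one coding transcript at 11686445 and lay 48 bp past that of the main coding transcript at 11686213. This was the only peak of the family at the start of a coding transcript of GENCODE. It held 0 RBPJ cores and 0 copies of GGGAA. Its centre fell on an E-box CACGTG, in capitals here (chr11:11686454-11686483, plus strand), a string bound by MYC and related factors. Of the 30 bases, 15 lie in an annotated exon.
Ikzf1 promoter: ggcgcacaaatcCACGTGagtgttttcgaa

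Intron 1 of Ikzf1 held 2 further peaks. One at chr11:11690244-11690605 scored 579.69, lower than all but 9.61% of the list, and held 1 RBPJ core. In GENCODE it lay 3.8 kb from the nearest start site of Ikzf1, but RefSeq places a start site of Ikzf1 at 11690177, 67 bp before the peak. The other, at chr11:11697609-11697940, scored 841.99 and held a RUNX motif and a GATA motif AGATAA but 0 cores. These 2 and the promoter peak formed a run of 3 over 11.7 kb, counting as a run peaks with gaps of at most 12.5 kb. The list held 116 runs of 3 or more.

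The intron 3 peak of Ikzf1, at chr11:11725740-11726604, scored 1646.03 and ranked 200 of 5910. It was 865 bp wide, beside a median of 370 bp over all peaks, and lay 39.3 kb past the nearest start site. It held 2 of the 7 RBPJ cores, 2 RUNX motifs, 1 TCF/LEF motif and 1 AP-1 motif. Only 3.59% of all peaks held as many kinds of the 8 motifs other than GGGAA, although a wide peak has more room for them. Of its bases 2.66% were soft-masked as repeats, and 0% of its 32-base strings occurred elsewhere in the assembly.

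Ikzf2 (ENSMUSG00000025997.13, chr1:69531214-69687245, minus strand), the longest of the 5 genes at 156 kb, carried 5 peaks of low score spread along introns 3 and 4 of its main coding transcript. In the direction of transcription the first lay at chr1:69681474-69681859 with a score of 615.27. It was 2.3 kb from the nearest coding start site and touched an exon of transcripts annotated as retained introns. The second, at chr1:69680747-69681159, began 314 bp beyond it, scored 446.27 and held 1 RBPJ core and the only ETS motif CCGGAA of the family. A peak 26.9 kb from a start site (chr1:69656847-69657250) scored 586.21, and a peak 72.1 kb from a start site (chr1:69611704-69612106) scored 513.93. The latest, in intron 4 at chr1:69574822-69575111, scored 725.25 and lay 109 kb from a start site. Like the peak before it, it was over 50 kb from any start site and was taken by the gene body, and 46.9% of its bases were soft-masked. Of these 5 peaks, 4 scored under 644.82, the lower quartile of the list, and the remaining 1 was just above the median of 717.71. RBPJ cores were present in 3 of the 5.

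Ikzf3 (ENSMUSG00000018168.8, chr11:98464902-98546031, minus strand) carried 4 of its 5 peaks toward the far end of the gene. They formed a run over 9.82 kb from 98470003 to 98479823, across introns 6 and 7 of its main coding transcript, and the list held 52 runs of 4 or more. In the direction of transcription their scores were 922.71, 891.24, 648.02 and 678.69. The first and second of them were among the higher scores of the family, and the last was the intron 7 peak shown above (chr11:98470003-98470399). That peak alone of the 4 held an RBPJ core, and 0.728% of all peaks held as many kinds of motif. The fifth peak of the gene lay in intron 1 (chr11:98527662-98528039, score 680.12), 17.8 kb from the coding start site, with an AP-1 motif and 0 cores.

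The run at Ikzf3 lay between 66 and 75.4 kb from the coding start site of Ikzf3 in GENCODE at 98545800. RefSeq also places a start site of predicted mRNAs of Ikzf3 at 98484838, which lay 5.01, 6.69, 8.24 and 14.4 kb from the 4 peaks. The peaks of score 891.24 and 648.02 count as promoter peaks because a transcript of the gene annotated as noncoding starts within 1 kb of them at 98477403. No coding start site of Ikzf3 in GENCODE had a peak within 5 kb. Over the family, 3 peaks lay within 1 kb of any GENCODE start site, 1 within 1 kb of a coding start site and 2 within 1 kb of a RefSeq start site, both at Ikzf1. Within 5 kb of any start site 3 of the 5 genes had a peak, as did 8.81% of all protein-coding genes.

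**Figure D2:**
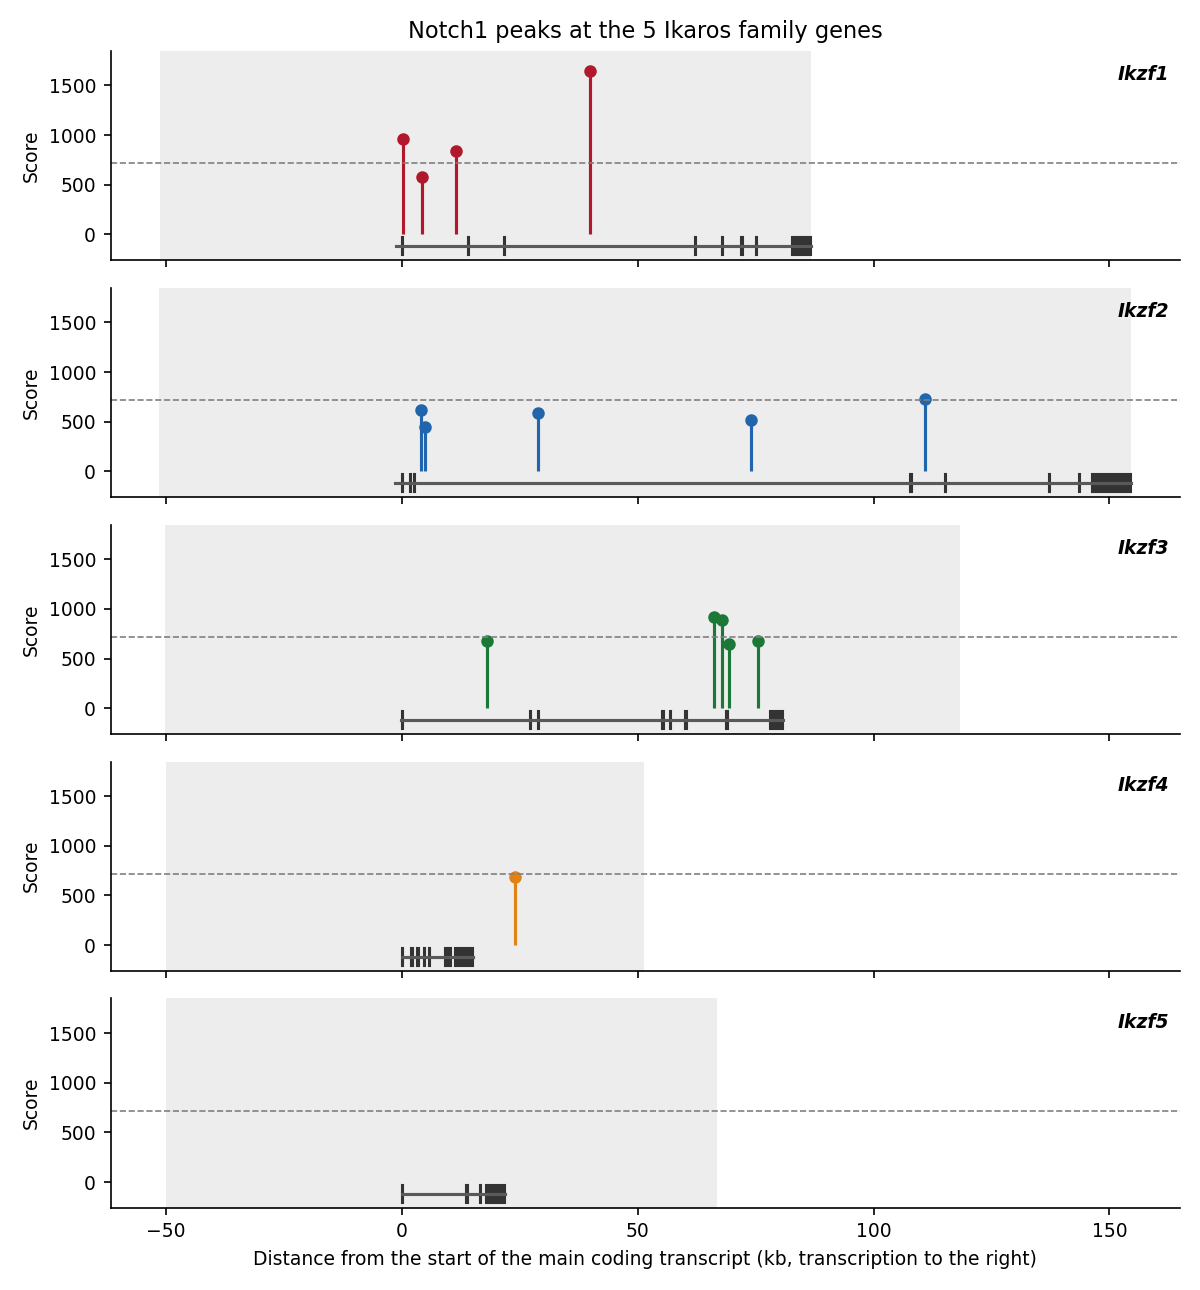
Notch1 peaks at the 5 genes, drawn as distance from the start of the main coding transcript (kb, transcription to the right) against the authors' score. Each stem is 1 peak, the grey area is the gene body and 50 kb around its start sites, the black line and blocks are the gene and the exons of its main coding transcript, and the dashed line is the median score of the list, 717.71. Ikzf1 has its peaks in the first part of the gene, Ikzf2 along introns 3 and 4, Ikzf3 mostly toward its end, Ikzf4 1 peak past its end and Ikzf5 none.

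Ikzf4 (ENSMUSG00000002578.17, chr10:128630843-128645991, minus strand) had 1 peak, at chr10:128621904-128622273 with a score of 684.47. It lay outside the gene, beyond its end, and 22.4 kb from the nearest start site of Ikzf4. The nearest start site of any protein-coding gene was that of Rps26, a ribosomal protein gene, at 4151 bp. This peak held 0 RBPJ cores and 1 copy of GGGAA. For the 14 other peaks the nearest start site of a protein-coding gene belonged to Ikzf1, Ikzf2 or Ikzf3 itself. Over all protein-coding genes, 15.1% had a peak of their window to which their own start site was nearest, and 3 of the 5 family genes did.

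Ikzf5 (ENSMUSG00000040167.16, chr7:131388652-131410521, minus strand) had no peak in its body or within 50 kb. The nearest peak to one of its start sites lay 103.1 kb away, at chr7:131290102-131290516 with a score of 624.46, and its nearest start site was that of Cuzd1. A missing peak is a missing call at an unknown depth, not a measured absence of binding.

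At the edge of the window, the Ikzf4 peak was the one outside a gene body that the 50 kb took in. Just beyond 50 kb, a peak at chr11:98423053-98423285 scored 1302.02 and lay 54.1 kb from the noncoding start site of Ikzf3 and 3795 bp from a start site of Erbb2. A further peak (chr11:11788378-11788789), 15.5 kb past the end of Ikzf1, scored 519.46 and was not taken, since the rule extends from start sites only. A peak at chr1:69768595-69768988, 81.3 kb upstream of Ikzf2, scored 579.21, and the nearest start site was that of Spag16. For Ikzf4, 3 peaks lay between 93.5 and 97.5 kb from a start site, with scores of 666.91, 962.63 and 846.41, nearest to Zc3h10 or Dgka.

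The 15 peaks had a slightly lower median score than the whole list. They ranged between 446.27 and 1646.03 with a median of 680.12, beside a median of 717.71 over all 5910 peaks. At or above that median were 6 of the 15, and 3 lay in the upper quartile, which 25% of all peaks do by definition. The genes differed. At Ikzf1 3 of 4 peaks were at or above the median, at Ikzf3 2 of 5 and at Ikzf2 1 of 5. The gene with the longest window thus had the lowest scores, with a median of 586.21 at Ikzf2, beside 680.12 at Ikzf3 and 899.62 at Ikzf1. Peaks of 1 library are not replicates, and this order was not tested.

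**Figure D3:**
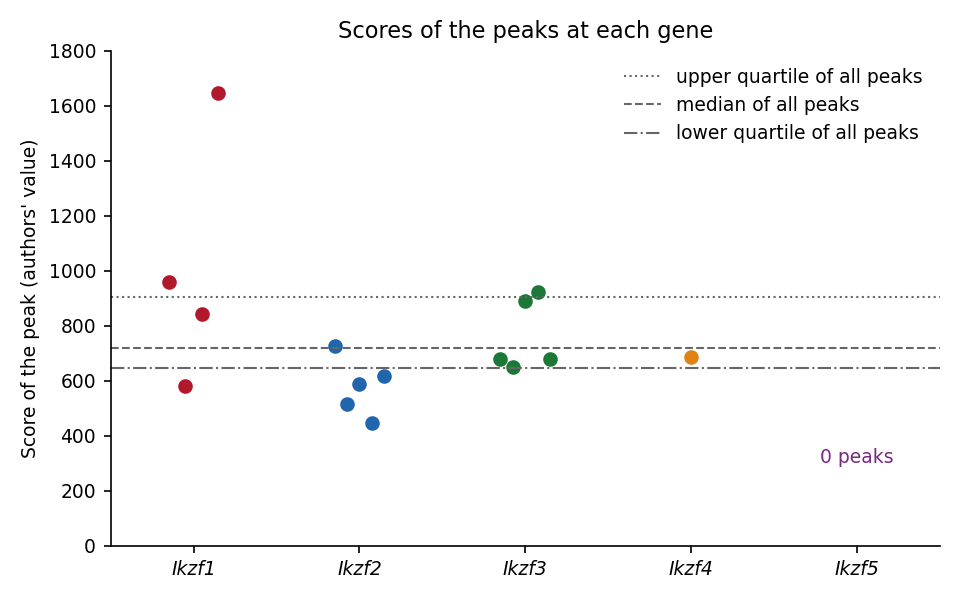
Score of each peak (authors' value, vertical axis) at each of the 5 genes. Each point is 1 peak, and the lines are the lower quartile (644.82), the median (717.71) and the upper quartile (903.727) of all 5910 nuclear peaks. Ikzf1 holds the highest score at 1646.03, 4 of the 5 Ikzf2 peaks are below the lower quartile, and Ikzf5 has 0 peaks.

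By their midpoints 13 lay in introns of the main coding transcript, 1 in an exon and 1 outside. By class, 66.7% were intronic, 20% promoter, 6.67% exonic and 6.67% intergenic, beside 32.3, 19.8, 5.08 and 42.8% of all peaks. The rule takes gene bodies, so it favours introns. Of the 15, 7 stood in a run of 3 or more peaks, 46.7% beside 8.41% of all peaks. The median gap to the next peak was 5.78 kb, beside 87.7 kb over the list, and a rule that gathers peaks within windows also favours short gaps. Single gaps ran between 0.314 kb at Ikzf2 and 73.9 kb at Ikzf4. Widths had a median of 403 bp and GC content one of 42.1%, beside 370 bp and 43.9% over all peaks. Under 20% of bases were soft-masked in 10 of the 15 (66.7%, beside 60.2% of all peaks). In 13 of the 15 no 32-base string recurred in the assembly (86.7%, beside 71.7%), and in the other 2, 1 at Ikzf2 and 1 at Ikzf3, 1.16 and 0.8% of strings did.

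The RBPJ core was present in 40% of the 15 peaks, beside 29.5% of all peaks and 32.5% of the 2682 peaks whose width was within 10% of the family's median. Per kb of sequence there were 1.11 cores in the family's peaks and 0.972 over all peaks. These shares are close for a set of 15, in which 1 peak is 6.67%. Of the 7 copies, 4 were over 100 bp from the peak centre. The central 200 bp held a core in 3 of the 15 peaks, beside 17% of all peaks. With 500 bp on either side of the centre, the same width for every peak, 9 of the 15 held a core, beside 61.3% of all peaks. The Ikaros core GGGAA alone, searched on both strands like every motif here, was present in 11 of the 15 peaks (73.3%, beside 65.1% of peaks of like width) in 15 copies. The 7 RBPJ cores are among those, and 8 copies stood outside TGGGAA. In 5 peaks GGGAA was present without the RBPJ core, and 4 peaks had neither.

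Among the other motifs, AP-1 (TGANTCA) was present in 5 of the 15 peaks, 33.3% beside 12.8% of peaks of like width. AP-1 factors are Fos and Jun dimers that act in activated T cells. There was 1 such peak at Ikzf1, 2 at Ikzf2 and 2 at Ikzf3, and in 4 of the 5 sites the free base was C or G. An AP-1 motif and an RBPJ core were both present in 3 of the 15 peaks (20%), beside 3.62% of all peaks, here of any width. Only in the Ikzf2 peak were they close, with 9 bases between them. The Ikzf1 peak was 865 bp wide, which gives more room for both, and in the Ikzf3 peak they lay on opposite sides of the centre. The TCF/LEF motif was present in 40%, beside 26.9% of peaks of like width. The E-box was present in 13.3%, beside 5.82%. The RUNX motif, a string found at many T cell enhancers, was present in 20%, beside 29.1% of peaks of like width. The ETS motif was present in 6.67%, beside 7.94%, and the GATA motif AGATAA, which GATA3 binds in T cells, in 6.67%, beside 22.4%. With 9 motifs in 15 peaks and no test, these shares are a description. A match is a string of letters, not a bound site.

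**Figure D4:**
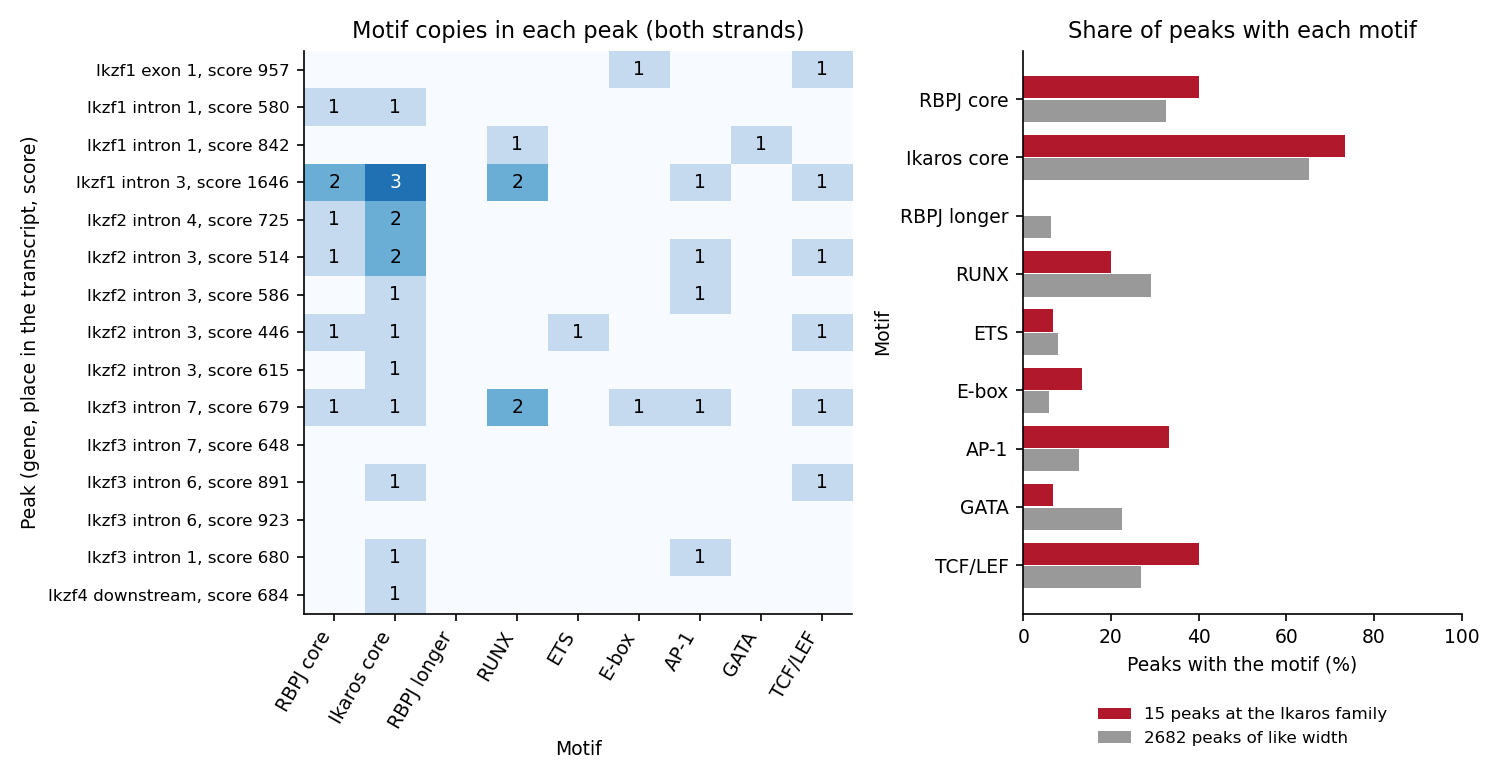
Left, copies of each motif on both strands (columns) in each of the 15 peaks (rows, named by gene, place of the midpoint in the main coding transcript and score), where an empty cell is 0. Right, percentage of peaks with the motif, in the 15 peaks at the Ikaros family (red) and in the 2682 peaks of like width in the whole list (grey). AP-1 stands at 33.3% beside 12.8% and the RBPJ core at 40% beside 32.5%.

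Genes for the proteins that Ikaros works with were counted by the same rule. Of 18 genes for subunits of NuRD and of the Sin3, CtBP and BRG1 complexes, 12 had a peak (66.7%, beside 31.7% of all protein-coding genes). Chd3 and Mta3 had 4, a number that 1.31% of all genes reached. The list was not matched for window length, which ran between 100.7 kb at Rbbp4 and 209.1 kb at Ctbp2. Of genes with windows like those of Ikzf1 and Ikzf2, 36.2 and 44.1% had a peak. The highest score was in the window of Chd3, a NuRD helicase gene, at 1970.27, followed by those of the NuRD gene Mbd3 (1469.67), the corepressor gene Sin3a (1320.79) and the histone-binding gene Rbbp7 (1111.34). For Chd3, Mbd3 and Sin3a that peak was nearer to the start of another gene, Kdm6b, Tcf3 and Neil1. By nearest start site 6 of the 18 had a peak of their own (33.3%, beside 15.1% of all protein-coding genes). Of the 4 peaks counted at Chd3, 0 were nearest to its own start, and of the 4 at Mta3, 3 were.

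Of 16 genes that Notch or Ikaros is known to act on in T cells, 6 had a peak by the same rule (37.5%, beside 31.7% of all protein-coding genes). By nearest start site 3 did (18.8%, beside 15.1%), namely Hes1, Hey1 and Il2ra. The highest scores were those in the windows of Cd4 (1312.78), Hes1 (1057.11), Il2ra (765.67) and Dtx1 (725.87). The Cd4 peak was nearer to Lag3 and the Dtx1 peak nearer to Rasal1. Il2ra, the interleukin-2 receptor alpha gene, had 4 peaks, all nearest to its own start, as many as Ikzf1 and fewer than Ikzf2 or Ikzf3.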

How the data were processed

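The authors deposited 1 peak list for the Notch1 library, with a position, a name beginning with MACS and a score for each peak. The deposited score is of unstated scale and was used only to describe and rank peaks within the list. Reads had been handled with Bowtie 1.0.0 and SAMtools 0.1.18 on mm10, per the submitters' processing notes. Not given in the sources used here are the caller's settings, how duplicate reads and the input were treated, and the depth. Per the labels' protocols, libraries had 18 cycles of PCR, and duplicate reads can raise a score.

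Peaks were set on GRCm38.p6 with GENCODE M21, 1-based, and 3 mitochondrial peaks were left out. Overlap of 1 bp counted. Promoter meant up to 1 kb from a start site of any transcript of a protein-coding gene, and exons and introns were those of protein-coding genes. Motifs were strings found on both strands. The window count was checked on planted peaks. Python 3.11.15, numpy 2.4.6 and pysam 0.24.0 were used. No test was run, since there was 1 library. The genes, the 2 gene lists and the motifs were chosen with earlier results of these data known. The genes named are the 5 members, the gene nearest to each of their peaks, up to 4 genes by score from each list, and, chosen after their values were seen, Mta3, Hey1 and the genes nearest to peaks of these lists or just outside the windows. Alternatives changed the window, start sites, assignment, score, overlap, repeat content and annotation.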

Additional observations from a re-analysis of the deposited data

How the results depend on the processing

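Ikzf1, Ikzf2 and Ikzf3 kept at least 1 peak each, and Ikzf5 had 0, under every window, overlap and annotation tried, with the gene body alone and with the nearest start site included. Against 4 genes with a peak, peaks in the upper quartile of score left 2 genes, Ikzf1 and Ikzf3. The share of all protein-coding genes is not given for that setting, so this count has no background beside it. Against 15 peaks, 7 lay within 5 kb of a start site, 6 scored at or above the median and 3 were in the upper quartile. Peaks under 20% soft-masked numbered 10, which left 3 at Ikzf2 and 3 at Ikzf3 in place of 5 each. The single Ikzf4 peak was lost with the gene body alone, with 20 kb, by nearest start site, at or above the median score and among peaks under 20% soft-masked, and 100 kb gave Ikzf4 4 peaks. Against 6 peaks with the RBPJ core, the central 200 bp gave 3, and 500 bp on either side of the centre gave 9. Peaks at or above the median score gave 2, and the longer consensus gave 0. Peaks at a promoter numbered 3, but 1 with coding start sites only, a choice made after seeing the data. Extending gene bodies by 50 kb at both ends, also chosen after seeing the data, gave 17 peaks at 4 genes. The share of all protein-coding genes is not given for that setting either. With 1 library, depth and input signal limit every statement on a gene without a peak.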
